A study of Mus musculus with 6 samples.

Results

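The replication-dependent histone genes are the many small genes of the Hist1 to Hist4 clusters that encode the linker histone H1 and the core histones H2A, H2B, H3 and H4. The set holds 70 of the 55291 genes in the deposited table. Members were chosen by symbol, as genes named Hist1h to Hist4h. Only 9 rows carry such a symbol as deposited, because the table names most of the family by newer symbols (H2bc4 for Hist1h2bc). The other 61 were found by the older symbol that RefSeq lists as a synonym, an extension made after the symbols in the table were seen. All 70 matched a Hist gene of the GENCODE mouse release 21 annotation, and 3 of them are annotated as pseudogenes.

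The libraries came from mouse bone marrow-derived macrophages (BMDM), which are macrophages grown in culture from bone marrow precursors. The 2 groups were 3 libraries of BMDM without any pretreatment by apoptotic cells (untreated replicates 1, 2 and 3) and 3 libraries of BMDM pretreated with apoptotic cells (AC replicates 1, 2 and 3). The sources used here do not state the strain, genotype or age, the origin or number of the apoptotic cells, or the length of the pretreatment. They also do not say that replicates came from separate animals or cultures, so that p-values cover the variation among these 6 libraries, which may be technical. RNA was poly(A) RNA, sequenced as read pairs of 150 bases, and the reads counted on genes numbered 19411597 to 32785888 per library.

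Replication-dependent histone mRNAs are the one large class of animal protein-coding mRNAs that normally carry no poly(A) tail. They end instead just after a short stem-loop, which is bound by the stem-loop binding protein Slbp, and they accumulate in S phase to supply new nucleosomes. Some histone genes also have poly(A) signals further downstream and give polyadenylated transcripts, which have been described in cells that stop dividing and differentiate. Levels in poly(A)-selected libraries therefore cover the tailed transcripts and leave most of the tailless ones uncounted.

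The stem-loop itself could be read in the annotated transcripts of 44 of the 70 members. It is shown here because it marks where the tailless form of the mRNA ends, and transcripts that run on past it can be tailed. The search asked for a 6-base stem that opens with GG and closes with CC around a 4-base loop that opens with TT, with G and T allowed to pair. The matches had the forms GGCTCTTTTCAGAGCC (26 members of the H1, H2A, H2B and H3 families), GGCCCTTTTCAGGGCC (7 members, all H4), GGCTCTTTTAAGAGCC (6 members of the H1, H2B and H3 families), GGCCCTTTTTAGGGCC and GGTCCTTTTCAGGACC (2 members each, all H4) and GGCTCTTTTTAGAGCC (1 H2A member). The search ran on the transcript strand past the stop codon. Within 100 bases of the stop it matched 44 of the 67 members with a coding transcript (65.7%) and 14 of 21695 other protein-coding genes (0.0645%). The capitals below mark the stem-loop, with 5 bases on either side, from GENCODE release 21 transcripts on mm10.
H1f2: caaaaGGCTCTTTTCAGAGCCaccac
H4c9: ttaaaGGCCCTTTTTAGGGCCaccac
H2aw: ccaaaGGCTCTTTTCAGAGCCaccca
H3c15: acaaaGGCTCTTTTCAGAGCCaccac
H4c8: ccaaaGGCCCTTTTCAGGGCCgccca
H2ac6: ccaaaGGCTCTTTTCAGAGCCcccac
These stretches lie at chr13:23739507-23739532 on the plus strand (H1f2), chr13:22040961-22040986 on the minus strand (H4c9), chr11:58955167-58955192 on the plus strand (H2aw), chr3:96238480-96238505 on the minus strand (H3c15), chr13:23531453-23531478 on the plus strand (H4c8) and chr13:23683472-23683497 on the minus strand (H2ac6), each in the 3′ UTR. After the stem-loop the annotated transcript runs on for 840 bases in H1f2, 330 in H4c9, 1643 in H2aw, 377 in H3c15, 46 in H4c8 and 2010 in H2ac6. No match was found in the transcripts of H2bc4 and H2bc21, whose annotated 3′ ends run 742 and 2192 bases past the stop codon. For 15 members the model ends at the stop codon or within 2 bases of it, so that it cannot show a stem-loop.

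In the libraries as a whole the 12 macrophage markers summed to 34183 to 46987 TPM (the level per exon base, each library rescaled to a total of 1000000), and Lyz2 was at 83.7 TPM in untreated replicate 1 against 9270 to 12451 TPM elsewhere. T cell markers, for cells often used as a source of apoptotic cells, summed to 10.8 to 19.1 TPM, 19 of 20 stayed under 1 TPM in every library, Cd4 carried the sum, and Cd3d, Cd8b1, Cd2 and Themis were at 0. Of 8 B cell markers 6 stayed under 1 TPM (sum 3.28 to 4.91 TPM), and neutrophil and marrow precursor markers summed to 39.0 to 76.6 TPM. The 23 placental markers, foreign to macrophages, summed to 23.0, 47.6 and 0 TPM in untreated replicates 1 to 3 and 42.8, 205.8 and 0.07 TPM in AC replicates 1 to 3, and erythroid markers to 1.65, 3.47 and 0.07 TPM and 6.66, 17.6 and 0.36 TPM. Placental transcripts were thus found in replicates 1 and 2 of both groups and were at or near 0 in replicate 3. Any difference given below for the libraries without them is therefore AC replicate 3 against untreated replicate 3, 1 library each. The part of placental transcripts in the histone values was not tested.

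In the BMDM libraries the family was carried by a pair of genes. H2bc4, an H2B gene, and H1f2, a linker histone gene, together made up 74.3% to 82.7% of the summed family TPM in each library. The 12 most abundant members made up 95.1% to 98.0%. The summed family TPM was 469, 464 and 388 in untreated replicates 1 to 3 and 497, 371 and 404 in AC replicates 1 to 3. The groups overlapped, with means of 440.5 ± 45.3 (SD, n = 3) and 424 ± 65.5 (SD, n = 3) and a log2 ratio of -0.05. That ratio was -0.10 in the 4 libraries with placental transcripts, 0.06 in the 2 without and 0.04 under scaling by the median of ratios. The other 68 members added up to 92.3, 96.0 and 90.6 TPM in the untreated libraries, against 86.0, 95.4 and 96.5 TPM in the AC libraries, a subset set apart after the values were seen. In bulk samples such as these, fewer cells of a kind and less RNA per cell cannot be told apart.

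Most members were near or below the limit of detection. In all, 16 members had no read in any library, 29 had reads but stayed under 1 TPM in every library, and 25 reached 1 TPM in at least 1 library. A count of 0 allows up to 3 reads in a library, which for the 5 members at 0 that share no 150-base window with another transcript corresponds to 0.304 to 1.39 TPM depending on their length and the depth, for counting error only and if no read was lost to an overlapping gene model. For the other 11, whose reads may also fit other genes, no such limit is given. For 40 members the 6 libraries together held under 10 reads. The 9 members still deposited under a Hist symbol were all of this kind: their summed TPM was 1.32, 0.49 and 1.19 in untreated libraries and 0.86, 1.56 and 2.17 in AC libraries, and Hist1h2al, Hist1h2ao and Hist1h2ap were at 0 throughout.

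**Figure D1:**
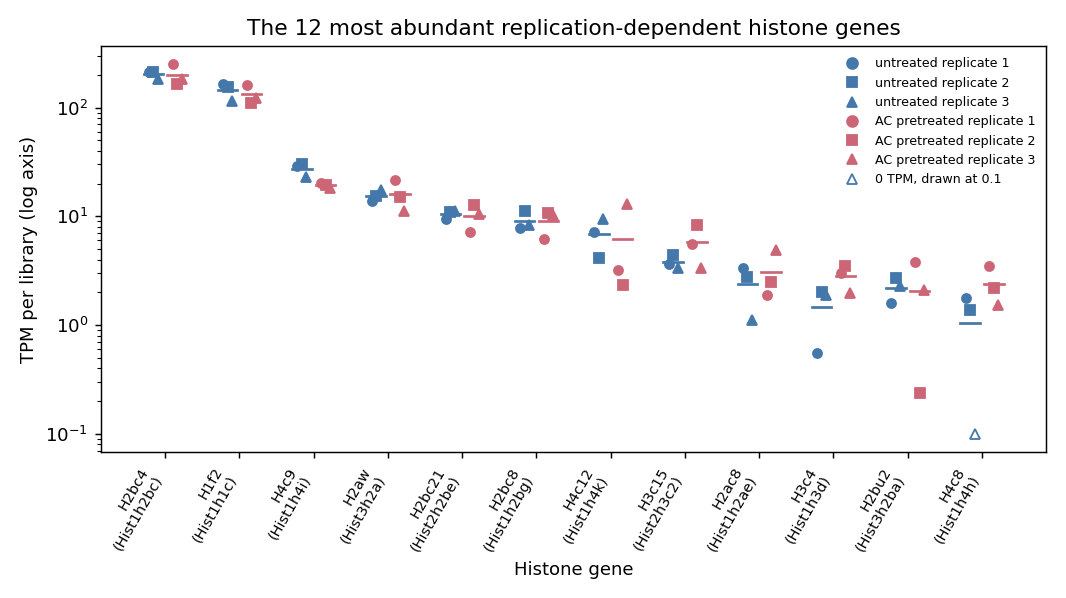
TPM in each library (log axis) for the 12 most abundant replication-dependent histone genes, one marker shape per replicate and one colour per group. H2bc4 and H1f2 lie above 100 TPM in all 6 libraries, and H4c9 is the only gene of the 12 whose groups do not overlap in TPM.

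For the comparison between groups, 13 members passed the filter of at least 1 TPM in at least 3 libraries, and 57 did not. By limma on log2(TPM + 1), with Benjamini-Hochberg adjustment over the 12603 genes tested, 0 of the 13 were called at an adjusted p of 0.05. Over all genes 0% were called. At an unadjusted p under 0.05, 1 of the 13 passed (H4c9, lower), against 1.3% of all genes (0.881% lower and 0.421% higher). The TPM of the groups did not overlap for 1 of the 13, again H4c9, lower in AC; over all genes 4.42% did not overlap, 3.48% in that direction and 0.936% in the other. Of the 13 fitted differences 9 were below 0, against 70.6% of all genes, and their median was -0.05 against -0.07 over all genes. With the columns scaled by the median of ratios, 6 of 14 members tested were below 0, against 52.6% of all genes. The filter kept some members only through the libraries in which they were high, so these counts are a description of the members that passed.

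**Figure D2:**
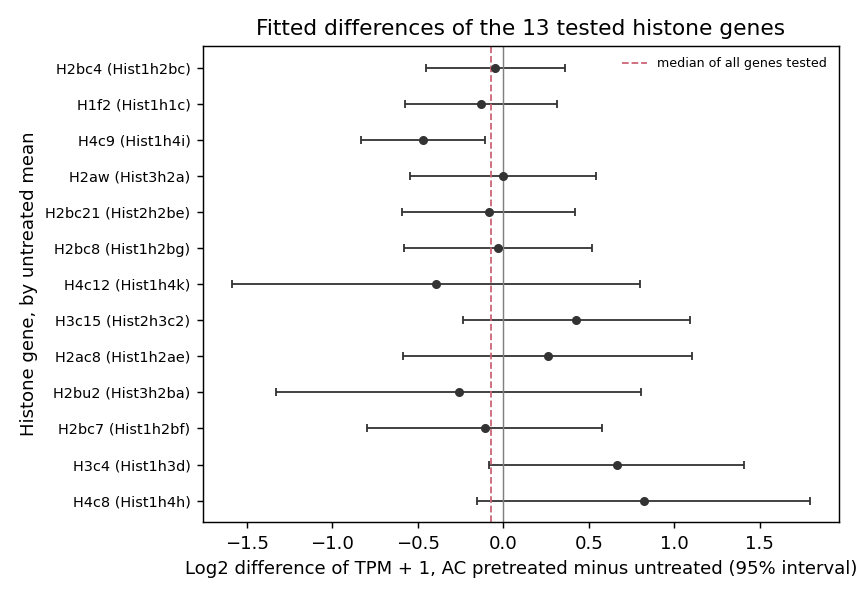
Fitted log2 differences of TPM + 1, AC pretreated minus untreated, for the 13 tested histone genes, with 95% intervals (n = 3 per group). The intervals of 12 genes include 0; the dashed line is the median of all 12603 genes tested.

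The linker histone genes encode H1, which binds the DNA entering and leaving the nucleosome. Their level was almost wholly that of H1f2 (Hist1h1c), a single-exon gene at chr13:23738808-23740367 on mm10. H1f2 stood at 164, 153 and 115 TPM in untreated replicates 1 to 3 and at 162, 111 and 123 TPM in AC replicates 1 to 3. Replicate 1 of both groups stood highest, the lowest values were AC replicate 2 and untreated replicate 3, and the groups overlapped (difference -0.13 ± 0.19 on the log2 scale, SE, 95% interval -0.58 to 0.32). The difference was -0.24 in the 4 libraries with placental transcripts and 0.09 in the 2 without, and lay between -0.29 and -0.01 as each library was left out in turn. H1f2 shares no window of 150 bases, the read length, with any other annotated transcript. The other 5 H1 genes were all under 1 TPM in every library: H1f6, a testis H1, was at 0, and H1f5, singled out after its values were seen, had 6 reads in untreated replicate 2, 3 in untreated replicate 3 and 0 in the other 4 libraries. The 6 H1 genes summed to 145 ± 25.1 TPM in the untreated libraries, against 132 ± 27.0 TPM in the AC libraries (SD, n = 3).

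Among the 20 H2A genes, whose protein pairs with H2B in the nucleosome, H2aw (Hist3h2a, chr11:58954685-58956830) had the highest level. It read 13.7, 15.3 and 17.4 TPM in the untreated libraries, against 21.4, 15.2 and 11.1 TPM in the AC libraries. AC replicates 1 and 3 lay above and below all untreated libraries (difference -0.00 ± 0.24 on the log2 scale, SE, 95% interval -0.54 to 0.54, turning to 0.07 under scaling by the median of ratios). The difference was 0.30 in the 4 libraries with placental transcripts and -0.60 in the 2 without. The value is uncertain, because 708 bases of the H2aw exon lie under an exon of Trim17 on the same strand. H2ac8 (Hist1h2ae, chr13:23570517-23571220) stood at 3.36, 2.75 and 1.11 TPM in the untreated libraries, against 1.88, 2.50 and 4.90 TPM in the AC libraries, with 5 to 24 reads each. Its groups overlapped (difference 0.26 ± 0.37, SE, 95% interval -0.58 to 1.11). The difference was -0.35 in the libraries with placental transcripts and 1.48 in the 2 without. Those 2 held 24 reads (AC replicate 3) and 5 reads (untreated replicate 3). Of the 20 H2A genes 9 were at 0 in all libraries, and 19 have an exon overlapped by a gene model annotated as a miRNA, mostly on the opposite strand. Some of their reads may be left uncounted if counting ignored strand, which is not stated and was not tested. The H2A sum was 20.6 ± 0.989 TPM in the untreated libraries, against 21.9 ± 2.75 TPM in the AC libraries.

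The 19 H2B genes held 50.9% to 54.2% of the family TPM, nearly all of it from H2bc4 (Hist1h2bc, chr13:23684199-23692908, 2 exons). H2bc4 stood at 214, 214 and 182 TPM in untreated replicates 1 to 3 and at 249, 165 and 185 TPM in AC replicates 1 to 3, from 1303 to 2684 reads per library. AC replicate 1 was the highest library and AC replicate 2 the lowest, so the untreated libraries lay within the AC range (203 ± 18.3 against 200 ± 44.0 TPM, SD, n = 3). The difference was -0.05 ± 0.18 on the log2 scale (SE, 95% interval -0.45 to 0.36) and 0.02 under scaling by the median of ratios. With and without placental transcripts it was -0.08 and 0.02.

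H2bc21 (Hist2h2be, chr3:96221119-96223738), which shares no 150-base window with another transcript, stood at 9.50, 10.9 and 11.2 TPM in the untreated libraries, against 7.11, 12.7 and 10.5 TPM in the AC libraries. H2bc8 (Hist1h2bg, chr13:23571396-23572013) stood at 7.88, 11.2 and 8.36 TPM in the untreated libraries, against 6.24, 10.7 and 10.2 TPM in the AC libraries. In both genes AC replicate 1 was the lowest of the 6 libraries and the groups overlapped, with differences of -0.09 ± 0.22 and -0.03 ± 0.24 on the log2 scale (SE), the latter 0.03 under scaling by the median of ratios. With and without placental transcripts the difference of H2bc8 was -0.18 and 0.26, and that of H2bc21 was -0.09 and -0.08. H2bu2 (Hist3h2ba, chr11:58948920-58949533) ranged from 1 to 21 reads, with 1.59, 2.71 and 2.30 TPM in the untreated libraries, against 3.77, 0.239 and 2.11 TPM in the AC libraries. Its groups overlapped, with a difference of -0.35 in the libraries with placental transcripts and -0.08 in those without. H2bc7 (Hist1h2bf), named after its values were seen, was the thirteenth gene tested, at 0.953 to 2.50 TPM. H2bc15, also named after its values were seen, reached the highest level among members that did not pass the filter: it had 1, 1 and 2 reads in untreated libraries and 1, 10 and 7 in AC libraries, at most 3.84 TPM.

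Histone H3 and H4 form the tetramer at the centre of the nucleosome. The summed levels of their genes differed here, with H4c9 the largest part of the H4 sum. As tailless mRNA is mostly left uncounted, these sums do not give the total H3 and H4 mRNA. The 12 H3 genes made up 1.24% to 3.98% of the family TPM and the 13 H4 genes 6.004% to 9.59%. The H3 sum was 5.84, 7.21 and 7.53 TPM in the untreated libraries, against 10.3, 14.8 and 7.98 TPM in the AC libraries. All 3 AC sums were above the untreated ones, under the 3 other scalings run as well, but untreated replicate 3 and AC replicate 3 differed by less than 1 TPM. Under scaling by the median of ratios they were nearly level, at 7.60 and 7.64. Among all genes tested, 0.936% had every AC library above every untreated one in TPM. The sum over members is given with no test, and it was 1 of 5 families looked at. H3c15 (Hist2h3c2, chr3:96238108-96239127) stood at 3.68, 4.43 and 3.38 TPM in the untreated libraries, against 5.62, 8.33 and 3.38 TPM in the AC libraries. AC replicates 1 and 2 were the highest libraries and AC replicate 3 was level with the lowest untreated one (difference 0.43 ± 0.29 on the log2 scale, SE, 95% interval -0.24 to 1.09). H3c15 shares 59.4% of its windows with other transcripts, among them the neighbouring H3c14 copy, which was at 0, so reads of these copies cannot be fully told apart.

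H3c4 (Hist1h3d, chr13:23575763-23577011) stood at 0.557, 1.996 and 1.88 TPM in the untreated libraries, against 3.00, 3.52 and 1.96 TPM in the AC libraries, from 5 to 34 reads. Untreated replicate 1 was the lowest and AC replicate 3 was inside the untreated range (difference 0.66 ± 0.32, SE, 95% interval -0.08 to 1.41, unadjusted p = 0.0741 by limma). In the 4 libraries that hold placental transcripts, replicates 1 and 2 of both groups, the difference was 0.98, and in the other 2 it was 0.04. The same values for H3c15 were 0.64 and 0.00, so in both genes replicate 3 of the groups was nearly level. Left out one at a time, the libraries gave 0.36 (without untreated replicate 1) to 0.84 for H3c4 and 0.16 (without AC replicate 2) to 0.71 (without AC replicate 3) for H3c15. The other 10 H3 genes were each under 1 TPM on average, with H3c13 and H3c14 at 0. Of these, named after their values were seen, H3c3 had 0 reads in each untreated library and 2, 5 and 4 in AC libraries, and H3c11 had 2, 1 and 1 reads in untreated and 0 in each AC library; neither passed the filter.

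H4c9 (Hist1h4i, chr13:22040636-22041362) was the most abundant H4 gene and the one tested member whose groups did not overlap in TPM. It stood at 28.9, 30.2 and 23.0 TPM in untreated replicates 1 to 3 and at 20.2, 19.5 and 18.4 TPM in AC replicates 1 to 3, from 93 to 238 reads. Every AC library was below every untreated library, which no longer held with the columns scaled by the median of ratios (23.4 in AC replicate 1 against 23.2 in untreated replicate 3) or by the trimmed mean. The AC libraries lay close together in TPM (27.4 ± 3.82 against 19.4 ± 0.901 TPM, SD, n = 3). The difference was -0.47 ± 0.16 on the log2 scale (SE, 95% interval -0.83 to -0.11) with an unadjusted p of 0.0174 by limma, and the adjusted p was 1.0, so the difference was not called. Its adjusted p lay between 0.776 and 1.0 over the alternatives run. The difference stayed between -0.59 and -0.40 as each library was left out in turn. Without untreated replicate 2, and by voom on the recovered reads, 0 members passed an unadjusted p of 0.05. Without untreated replicate 1, 1 member passed by limma, and it was not H4c9 (-0.43 ± 0.21, SE). The difference was larger relative to its SE in H4c8 there (1.10 ± 0.45, SE). The difference of H4c9 was -0.55 in the 4 libraries with placental transcripts and -0.31 in the 2 without. Only 2.08% of the 150-base windows of H4c9 are shared with another transcript.

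Both other H4 genes tested overlapped between the groups. H4c12 (Hist1h4k, chr13:21750194-21750505), whose model is the coding part alone, stood at 7.13, 4.14 and 9.54 TPM in the untreated libraries, against 3.18, 2.35 and 12.9 TPM in the AC libraries, so AC replicate 3 was the highest of all and AC replicate 2 the lowest (difference -0.39 ± 0.52, SE). With and without placental transcripts the difference was -0.79 and 0.40. It shares 53.4% of its windows with other transcripts and had 5 to 28 reads. H4c8 (Hist1h4h, chr13:23531050-23531519) had 6, 7 and 0 reads in untreated and 15, 7 and 5 in AC libraries, or 1.78, 1.37 and 0 against 3.52, 2.18 and 1.53 TPM. AC replicate 3 was inside the untreated range (difference 0.82 ± 0.42, SE, 95% interval -0.15 to 1.79, unadjusted p = 0.0874 by limma). The difference was 0.56 in the libraries with placental transcripts and 1.34 in those without, and was 0.37 without untreated replicate 3. The H4 sum was 41.2, 39.3 and 34.5 TPM in the untreated libraries, against 29.9, 27.4 and 38.7 TPM in the AC libraries, and the groups overlapped.

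The members also differed by how far their annotated transcript runs past the stop codon. A limit of 120 bases, chosen after the values were seen, splits the 67 members with a coding transcript into 28 with a long 3′ end (150 to 4931 bases) and 39 with a short one (up to 114 bases). Of the 28 long ones 10 had a mean of at least 1 TPM. In reads, which unlike TPM rise with exon length, the 28 held 98.7% of the family. Of their 26418 reads H2bc4 held 11204 and H1f2 10384, and the median of the mean TPM was 0.357 over the long ones and 0.148 over the short ones. The 39 short ones held 1.23% of reads, 4 of them had a mean of at least 1 TPM (H4c12, H4c8, H2bc7 and H2bc15), and 13 were at 0. The short ones also share more sequence with other transcripts, a median of 52.5% of their 150-base windows against 14.6%, and the part of this in their low counts was not tested. A poly(A) signal hexamer, AATAAA or ATTAAA, was found in the last 40 bases of the transcript of 17 members, which held 54.0% of reads; H2bc4 was not among them. Of the 67 members with a coding transcript these were 25.4%, against 77.4% of other protein-coding genes. The 2 shares are not like for like. A gene counted if any of its coding transcripts held the hexamer, so genes with more annotated transcripts had more chances. The models of 15 members end at the stop codon or within 2 bases of it. A long annotated end did not by itself go with a high level: H2ac6, with 2010 bases after its stem-loop, had 38 reads in all.

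**Figure D3:**
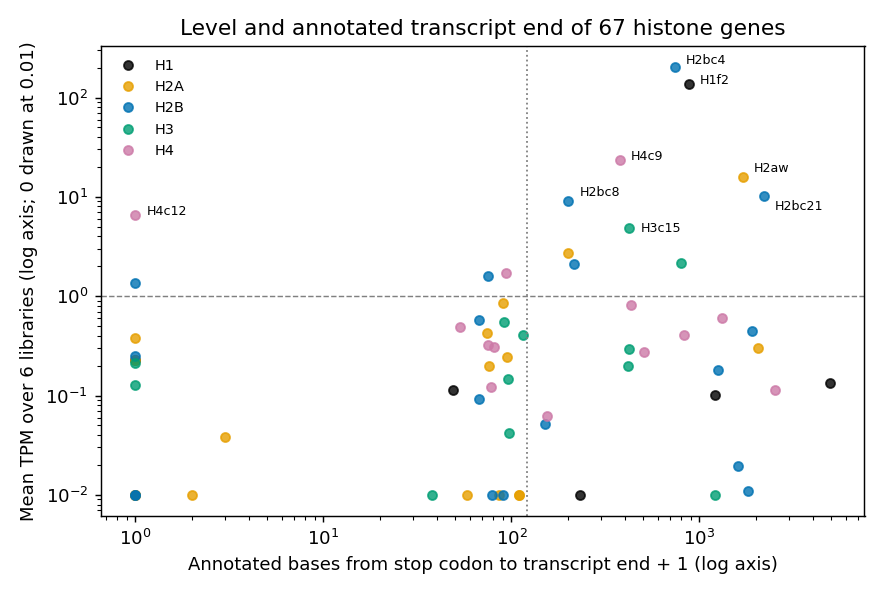
Mean TPM over 6 libraries (log axis, genes at 0 drawn at 0.01) against annotated bases from stop codon to transcript end plus 1 (log axis) for the 67 histone genes with a coding transcript, coloured by family. The dotted line is at 120 bases and the dashed line at 1 TPM; the genes above 10 TPM have ends of 376 to 2192 bases, and many genes with long ends are under 1 TPM.

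H2A and H2B genes often lie head to head and share the stretch between their starts. Pairs with starts within 500 bases, a grouping made after the values were seen, numbered 14, and most of them had too few reads to be ordered. The 4 pairs with more than 100 reads in 1 partner follow. H2bc4 and H2ac6 start 251 bases apart, with mean TPM of 201.5 and 0.303 over the 6 libraries. H2bc21 and H2ac20, 239 bases apart, had 10.3 and 0.242 TPM. H2bc8 and H2ac8, 176 bases apart, were closer, at 9.10 and 2.75 TPM. In the pair H2aw and H2bu1-ps, 173 bases apart, the H2A gene was the higher one at 15.7 TPM, against 0.729 TPM for the pseudogene. An exon of each of these 4 H2A genes lies under a gene model annotated as a miRNA, on the opposite strand in H2ac20 and H2ac8. The part of this in their levels was not tested.

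Sequence that members share may limit what could be counted. Of 25 members that share over 50% of their 150-base windows with other annotated transcripts, 10 were at 0. All 5 members whose windows are all shared were at 0: H2ac18, H2ac19, H2bc18, H3c13 and H3c14. These 5 also have exons overlapped by gene models outside the family, whose transcripts count here as sharing. In H3c14 all 1825 exon bases lie under Gm20634 on the same strand. Of 26 members with an exon overlapped by another gene, 12 were at 0. Of 15 members with no shared window 5 were at 0, and of 30 with up to 50% shared 1 was. The sources used here do not state how reads that fit several genes were treated, so a count of 0 in a shared gene says nothing of its transcript. The parts of shared sequence and of overlapping gene models in these zeros were not tested.

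Most histone variant genes outside the clusters make polyadenylated mRNAs and are not tied to S phase, while H2ax can also give a tailless stem-loop mRNA. The 11 replication-independent variant genes were all tested, and 0 were called. They summed to 1568 ± 40.6 TPM in the untreated libraries, against 1421 ± 93.6 TPM in the AC libraries, above the sum of the clustered genes in every library. H3f3b, an H3.3 gene, stood at 647.5, 649 and 711 TPM in the untreated libraries, against 605, 579.7 and 579.7 TPM in the AC libraries, and H2az1 (H2afz), an H2A.Z gene, at 259, 237 and 249 TPM against 233, 212 and 230.0 TPM. The AC libraries were below all untreated ones in both genes, though not with the columns scaled by the median of ratios or the trimmed mean, nor for H2az1 with protein-coding totals, with differences of -0.18 ± 0.12 and -0.14 ± 0.12 (SE) and adjusted p of 1.0 by limma. H3f3a had means of 356 and 340 TPM, H2ax (H2afx), the variant marked at DNA breaks, 34.9 and 35.4 TPM, H2az2 (H2afv) 50.7 and 42.3 TPM, and H1f0, the linker histone of resting cells, 61.7 and 54.5 TPM, in untreated and AC libraries respectively, and their groups overlapped. Over the 11 variant genes 8 differences were below 0, with a median of -0.14, against 70.6% below 0 and a median of -0.07 over all genes.

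Most of the listed machinery that makes and ends histone mRNAs was expressed in all libraries, while Zfp473 stayed at 0.066 to 0.194 TPM and was not tested. Of 22 listed genes of histone mRNA transcription and processing 21 were tested, 0 were called, and 16 differences were below 0 with a median of -0.03, against 70.6% and -0.07 over all genes. Slbp, which binds the stem-loop, stood at 18.8, 15.6 and 19.8 TPM in the untreated libraries, against 13.5, 21.6 and 17.6 TPM in the AC libraries, so the groups overlapped (difference -0.05 ± 0.20, SE, and 0.01 under scaling by the median of ratios). Npat, the activator of clustered histone genes, had means of 7.67 and 7.75 TPM. The U7 snRNP subunits Lsm10 and Lsm11 had means of 74.3 and 73.2 TPM and of 4.40 and 4.63 TPM, and the exonuclease Eri1, which trims histone mRNA ends, 13.3 and 14.2 TPM, in untreated and AC libraries. Of 22 histone chaperone genes all were tested, 0 were called and 16 differences were below 0 (median -0.08), against the same 70.6% and -0.07. Asf1b, an H3-H4 chaperone, had means of 13.2 and 13.02 TPM and Chaf1a, a subunit of chromatin assembly factor 1, 4.58 and 3.74 TPM.

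Genes of DNA replication, the phase in which tailless histone mRNA is made, were measured alongside. All 38 listed S phase genes were tested, 0 were called, and their sum was 1077 ± 118 TPM in the untreated libraries, against 1060 ± 159 TPM in the AC libraries. Pcna, the polymerase clamp, had means of 456 and 462 TPM, Mcm5, a helicase subunit, 36.1 and 33.0 TPM, Rrm2, of nucleotide reduction, 14.3 and 13.9 TPM, Ccne2 (cyclin E2) 4.85 and 4.58 TPM and E2f1 45.1 and 39.3 TPM. Of 25 G2 and mitosis genes tested 0 were called and 24 differences were below 0 (median -0.29), against 70.6% and -0.07 over all genes. Their sum was 257, 220.1 and 201 TPM in the untreated libraries, against 162, 199 and 199 TPM in the AC libraries, so AC replicate 1 was lowest and the other AC libraries lay just below untreated replicate 3. Ccnb2 (cyclin B2) stood at 18.9, 16.4 and 8.08 TPM in the untreated libraries, against 9.51, 8.04 and 7.98 TPM in the AC libraries, so untreated replicate 3 was inside the AC range (difference -0.63 ± 0.29, SE, adjusted p = 1.0 by limma). Mki67 had means of 7.004 and 6.01 TPM and Top2a 12.6 and 11.5 TPM, and without AC replicate 1 the differences of both turned to 0.13.

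**Figure D4:**
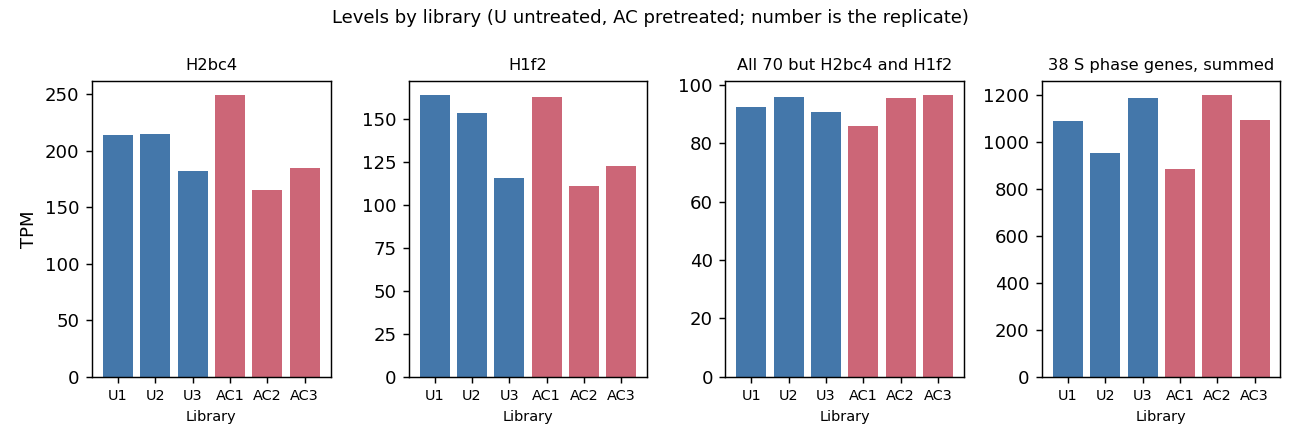
TPM by library for H2bc4, for H1f2, for the sum of the other 68 members and for the sum of the 38 S phase genes (bars start at 0; U untreated in blue, AC pretreated in red, number is the replicate). AC replicate 1 has the highest H2bc4 bar and the lowest summed S phase bar, and the sum of the other 68 members stays between 86.0 and 96.5 TPM.

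Some other RNAs that normally lack a poly(A) tail were counted as well. Rn7sk, a small nuclear RNA, stood at 5.04, 3.90 and 17.5 TPM in the untreated libraries, against 9.99, 10.6 and 21.3 TPM in the AC libraries, highest in replicate 3 of each group (difference 0.79 ± 0.50, SE). Rmrp was listed at 0 in all libraries, and Rpph1 was at 0.87 TPM in untreated replicate 1 and listed at 0 elsewhere. The genes named Snora or Snord summed to 212 to 314 TPM. Also shown is Gm23935, which was not among the RNAs listed as tailless. It held 9648 to 13452 TPM in 5 libraries and 73936 TPM in AC replicate 3. With totals taken over protein-coding genes alone the log2 ratio of the summed histone TPM was -0.02. The part of tailless RNA in the histone values was not tested.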

How the data were processed

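The authors deposited 1 signal table for all genes whose columns are called TPM; they sum to 54732 to 92831 rather than 1000000. Per the submitters' processing notes, STAR 2.7.10a, Subread, featureCounts 2.0.3 and mm10 were used; the sources used here name no annotation, strand or multi-mapping setting. The deposited signal times GENCODE release 21 exon length, divided by 8.57, gave whole reads (tolerance 0.02) for 23696 of 24064 genes (98.5%), so it is reads per base without depth scaling. Each column was rescaled to 1000000.

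Differences came from limma 3.58.1 (R 4.3.3; trend) on log2(TPM + 1), a scale that understates changes of low genes, for genes that reached 1 TPM in 3 or more libraries, 2-sided, tested on simulated data first. The design was written for values already in TPM and was kept after rescaling. Recovered reads entered voom as an alternative. Other scalings, pseudocounts of 0.1 and 0.5, no filter and leaving out libraries were also run. Named members were the 12 most abundant plus the 4 with the smallest unadjusted p in each direction. Genes of the other lists came from a fixed list. Every other histone member named, Gm23935 and Zfp473 were named after their values were seen. Members and lists were chosen with earlier results of these data known.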

Additional observations from a re-analysis of the deposited data

How the results depend on the processing

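The number of histone members called stayed at 0 under every alternative that gave a test, which were 2 other pseudocounts, no filter, 3 other scalings, limma without trend, voom, the replicate block, the 6 fits without 1 library each and the 4 libraries with placental transcripts. At an unadjusted p under 0.05 these fits passed 0 to 4 members, with 0 by voom and without untreated replicate 2, and 4 without AC replicate 3. The number of members tested was 13 in the main fit, 14 with median-of-ratios or trimmed mean scaling, and 54 with no filter, where 3 passed. The share of all genes that passed was taken only for the main fit, so these counts are not a result about the members. The 2 libraries without placental transcripts allow no test. The median difference over tested members moved to -0.18 in the libraries with placental transcripts, where the median over all genes moved from -0.07 to -0.13. It turned to 0.026 with median-of-ratios scaling, 0.028 with trimmed mean scaling and 0.019 with no filter. With no filter 23 of 54 members were below 0, and the median over all genes was -0.026. As each library was left out in turn the median over members lay between -0.09 and 0.06. The log2 ratio of the summed TPM then lay between -0.18 and 0.03. The cause of these shifts was not tested. The labels do not say what a replicate number marks, and deviations of same-numbered libraries correlated at -0.06, 0.01 and 0.17, so the numbers were not taken to pair the samples, although the placental transcripts follow the number and the SE of Rn7sk was 0.50 without and 0.26 with the block. With the replicate block 0 members were called, and 2 passed an unadjusted p under 0.05 by limma, against 1 in the main fit. The SE of members moved both ways with the block, from 0.52 to 0.31 for H4c12, 0.42 to 0.33 for H4c8 and 0.16 to 0.20 for H4c9. The median of -0.05 is the same by construction in this balanced design. Some small differences changed sign, and the cause was not tested. With median-of-ratios scaling the values were 0.024 for H2bc4, 0.065 for H2aw, 0.028 for H2bc8, 0.013 for Slbp, 0.030 for Npat, 0.043 for Lsm10 and 0.045 for Asf1b. With trimmed mean scaling they were 0.026 for H2bc4, 0.067 for H2aw, 0.030 for H2bc8, 0.015 for Slbp, 0.032 for Npat, 0.046 for Lsm10 and 0.048 for Asf1b. With protein-coding totals they were 0.032 for H2aw, 0.0016 for H2bc8, 0.0057 for Npat, 0.010 for Lsm10 and 0.015 for Asf1b, and with voom 0.057 for H2aw, 0.015 for Lsm10 and 0.024 for Asf1b. In the libraries with placental transcripts they were 0.30 for H2aw, -0.35 for H2ac8, 0.00035 for Slbp, -0.045 for H2ax and 0.14 for H3f3a. In the libraries without them they were 0.018 for H2bc4, 0.086 for H1f2, 0.26 for H2bc8, 0.40 for H4c12, 0.16 for Npat, 0.12 for Chaf1a, 0.14 for Mcm5, -0.41 for Pcna, 0.0084 for Rrm2, 0.011 for E2f1, 0.71 for Mki67 and 0.30 for Top2a. Leaving out 1 library at a time gave ranges that include both signs for H2bc4 (-0.22 to 0.080), H2aw (-0.23 to 0.22), H2bc21 (-0.25 to 0.12), H2bc8 (-0.16 to 0.19), H4c12 (-1.02 to 0.0028), H2ac8 (-0.052 to 0.48), H2bu2 (-0.69 to 0.28), Slbp (-0.20 to 0.11), Npat (-0.18 to 0.23), Lsm10 (-0.12 to 0.069), Lsm11 (-0.077 to 0.22), Eri1 (-0.063 to 0.28), H2ax (-0.075 to 0.11), H3f3a (-0.21 to 0.067), Asf1b (-0.048 to 0.021), Mcm5 (-0.34 to 0.068), Pcna (-0.11 to 0.17), Rrm2 (-0.31 to 0.25), Ccne2 (-0.37 to 0.31), Mki67 (-0.55 to 0.13) and Top2a (-0.35 to 0.13). The sign was the same in all 6 of these fits for H1f2 (-0.29 to -0.015), H3c15 (0.16 to 0.71), H3c4 (0.36 to 0.84), H4c8 (0.37 to 1.10) and H4c9 (-0.59 to -0.40). The members with under 10 reads in all did not pass the filter. What size of difference could be detected with so few reads was not tested.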
